A study of Equus caballus with 19 samples.

Results

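HBA2 and HBB, which encode the alpha and the beta chain of hemoglobin, and SLC4A1, which encodes the anion exchanger of the red cell membrane (band 3), were examined in the blood of 19 horses. The genes were chosen by name, and their probes were found through the RefSeq accession that the scanner files give for each spot, which left 3 of the 799 genes that could be named in this way, with 7 of the 43384 probes of the array. HBA2 (NM_001085431, gene ID 100036558) and HBB (NM_001164018, gene ID 100054109) each had 1 probe, A_69_P001226 and A_69_P120116. SLC4A1 (NM_001081788, gene ID 100009691) had 5 probes, A_69_P001191 to A_69_P001195.

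The study compared prepubertal foals of the Welsh breed that lived for 12 weeks in an enriched environment (EE) or in the control condition. The labels call the control condition impoverished. The EE-treated horses spent part of each day in a large stall of their own on straw and the rest at pasture in company. They had varied feed, objects, odours and music. The control horses lived in a small stall of their own on wood shavings, fed on pellets and hay. On some days each was led to a paddock of its own for a short time. They could see, smell and hear other horses but had no physical contact with them. Venous whole blood was collected at the end into tubes that preserve RNA, and the RNA of each horse was labelled with a single dye and hybridised to 1 array. The control group held 9 horses (6 males and 3 females) and the EE-treated group 10 horses (4 males and 6 females). All arrays were brought to a common 75th percentile of 500, which is 8.97 on the log2 scale, and every level below is a log2 signal on that scale.

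Hemoglobin carries oxygen in the red cell as a tetramer of paired alpha-type and beta-type globin chains, and the anion exchanger of the membrane trades bicarbonate for chloride and anchors the membrane to the cytoskeleton. All of these are made in bulk by red cell precursors in the bone marrow, and a red cell that has just lost its nucleus, the reticulocyte, still carries globin mRNA until that RNA decays. Horses are known for releasing very few reticulocytes into the blood, and RNA of whole blood comes largely from white cells, beside the globin mRNA that remains. In a bulk sample, fewer cells of a type and less RNA per cell cannot be told apart.

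The arrays were of similar quality. The share of spots well above background ran from 61.2% to 69.6%, with medians of 65.4% for control and 64.5% for EE-treated horses. No spot was saturated (0 on all arrays), so the globin levels were not limited by the scanner. The 75th percentile before scaling was 588 ± 102 (SD, n = 9) in the control horses and 524 ± 134 (SD, n = 10) in the EE-treated horses. Each of the 5 slides held horses of both groups, but a control horse lay at position 2 or 4 of its slide and an EE-treated horse at position 1 or 3 (horse475 at position 2 excepted), so position and treatment cannot be told apart. Most markers of blood cells that could be named were measured: MMP9 (a protease of neutrophils), CD14 (monocytes), CD2 and IL7R (T cells) and ITGA2B (platelets) were well above background on all 19 arrays, the T cell gene CD28 on 18, and the B cell gene FCER2 on all 19 with at least 1 of its 6 probes. The platelet gene ITGB3 (5 probes) had a probe well above background on 2 arrays and the neutrophil chemokine gene CXCL8 (6 probes) on 4, so these were mostly not measured. Of genes of other tissues, the glial gene GFAP was well above background on 0 arrays, and ALB (serum albumin, made in liver) and the muscle myosin gene MYH7 on 2 each.

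Both globin genes were well above background on all 19 arrays and differed widely from horse to horse. The HBB signal of the control horses ran from 9.85 to 14.59, with a median of 12.10, and that of the EE-treated horses from 9.25 to 16.03, with a median of 10.72. The EE-treated group therefore reached both lower and higher than the control group, and the control values lay entirely inside its range. The HBA2 signal ran from 11.06 to 14.33 in the control horses, with a median of 12.37, and from 11.24 to 15.49 in the EE-treated horses, with a median of 11.94. Here too the groups overlapped over nearly the whole range of the control horses. In the plot of globin signal by group, 6 of the 10 EE-treated horses lie low and 4 stand well above them. The levels of the 2 genes come from different probes and were not set against each other.

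**Figure D1:**
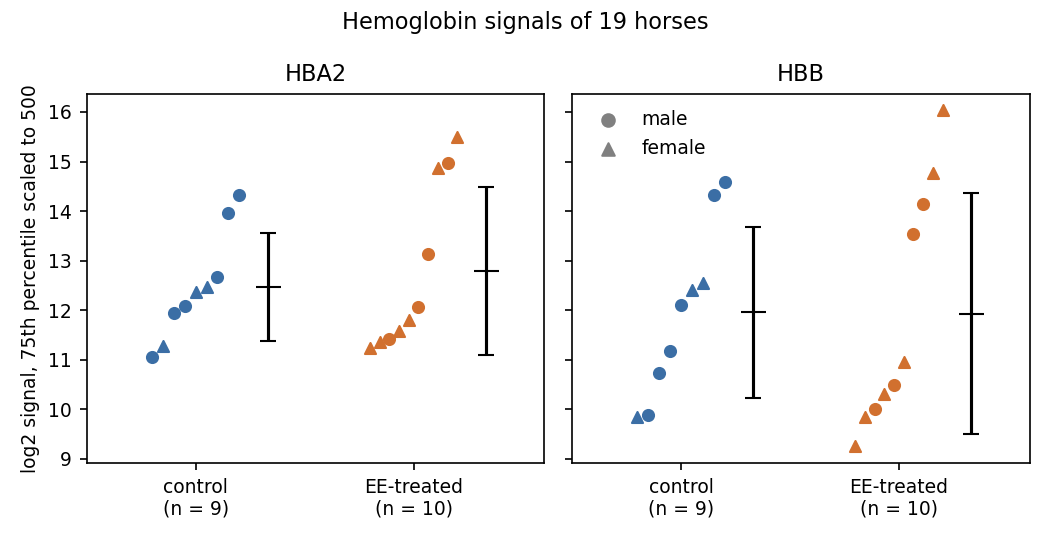
The log2 signal of HBA2 and HBB (vertical axis, arrays scaled to a 75th percentile of 500) is shown for each of the 9 control and 10 EE-treated horses, with bars for the group mean ± SD and different symbols for males and females. The group means of HBB are 11.96 and 11.93, and single horses reach from 9.25 to 16.03.

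The spread of the globin genes was far beyond that of most probes. HBB spanned 6.78 on the log2 scale between the lowest and the highest horse, which is a 110-fold difference in signal, and HBA2 spanned 4.42, a 21.4-fold difference. The SD over the 19 horses was 2.07 for HBB and 1.41 for HBA2, whereas the median SD of the 24524 probes that were well above background on every array was 0.293. Only 16 of these probes (0.0652%) had a larger SD than HBB, and 56 (0.228%) had a larger SD than HBA2. The histogram of probe SDs places both globin probes in the far right tail.

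**Figure D2:**
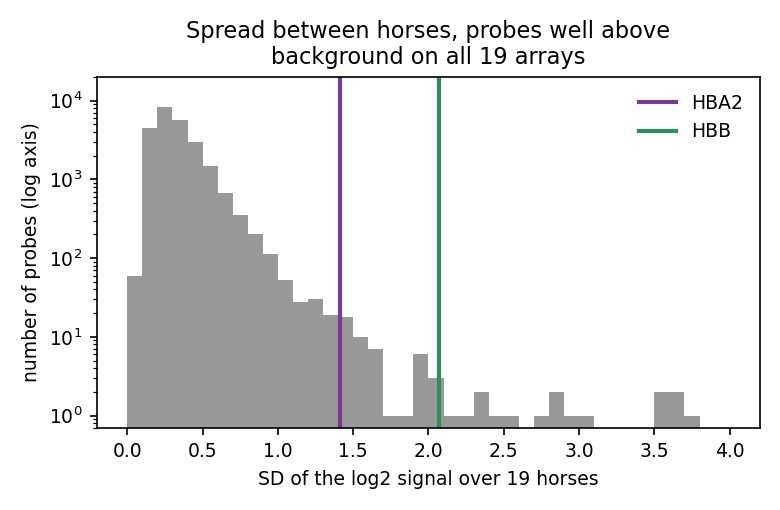
The number of probes (vertical axis, log scale) is plotted against the SD of the log2 signal over the 19 horses (horizontal axis) for the 24524 probes well above background on every array, with lines at HBA2 (1.41) and HBB (2.07). The median probe has an SD of 0.293, and both globin genes lie in the sparse right tail.

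The same 6 horses carried the highest HBB and the highest HBA2 signals. By the numbers in the labels these were EE-treated horse643, horse651, horse469 and horse473 and control horse476 and horse474. Their HBB signals were 16.03, 14.76, 14.15, 13.53, 14.59 and 14.32 in that order, and the next horse, control horse647, was at 12.55. Their HBA2 signals were 15.49, 14.87, 14.98, 13.14, 13.96 and 14.33, against 12.67 in the next horse, control horse470. The gap below the lowest of the 6 horses was thus wider for HBB than for HBA2. The 6 horses were 4 males and 2 females and lay on 4 of the 5 slides.

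The first comparison asked whether the enriched environment changed the globin transcripts in blood. No difference of HBB between the groups was detected: its mean was 11.96 ± 1.73 (SD, n = 9) in the control horses and 11.93 ± 2.43 (SD, n = 10) in the EE-treated horses, a ratio of EE-treated over control of 0.98 (95% confidence interval 0.263 to 3.69). On the log2 scale the difference was -0.02 (SE 0.91), with an adjusted P of 0.992 in limma. HBA2 was at 12.46 ± 1.09 (SD, n = 9) in the control horses and 12.80 ± 1.69 (SD, n = 10) in the EE-treated horses, a ratio of 1.26 (0.514 to 3.09). The HBA2 difference of 0.33 on the log2 scale (SE 0.62, adjusted P = 0.822 in limma) was smaller than the SD of either group, and for both genes 4 of the 10 EE-treated horses were above the control mean. With this spread between horses the intervals still hold changes of more than 3-fold upward for both genes. Downward they hold nearly 4-fold for HBB and a ratio as low as 0.514 for HBA2. Changes inside these intervals are not excluded by the 19 arrays.

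For the background of these tests, 42402 features (named genes and unnamed probes) were compared in the same limma fit. After Benjamini-Hochberg adjustment 0 of them (0%) had a P under 0.05, 4968 (11.7%) had an unadjusted P under 0.05, with 7.45% of the features higher and 4.27% lower in the EE-treated horses, and 775 (1.83%) met the rule of the study's methods, an unadjusted P under 0.005 with a difference of at least 20%. By that rule 0 of the 3 genes were called, and of the 7 single probes 0 were called, against 1.82% of the 43384 probes.

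Within single slides the difference of the group means changed sign. For HBB, EE-treated minus control was -2.16, -1.76, -0.10, 3.86 and -0.02 on slides 1 to 5 on the log2 scale. For HBA2 it was -0.93, -0.91, -0.13, 2.33 and 1.58. Both EE-treated horses of slide 4, horse651 and horse473, were among the 6 horses with high globin signals, and neither control horse of that slide was. Each slide held 3 or 4 horses, so no test within a slide was made. The plot of differences by slide shows HBA2 and HBB with the same sign on slides 1 to 4.

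**Figure D3:**
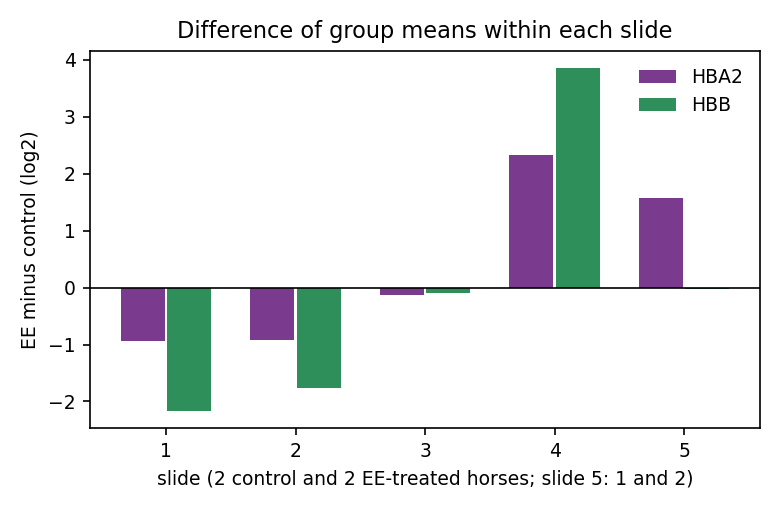
Bars give the EE-treated minus the control mean of the log2 signal (vertical axis) of HBA2 and HBB within each of the 5 slides (horizontal axis), each with 3 or 4 horses and no error bar. The differences run from -2.16 to 3.86 for HBB and from -0.93 to 2.33 for HBA2.

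The sexes were compared because they were unequally divided between the groups, with treatment in the same fit. Males were at 12.10 ± 1.89 (SD, n = 10) and females at 11.77 ± 2.36 (SD, n = 9) for HBB, and the difference of 0.34 on the log2 scale (SE 0.97) had an adjusted P of 0.937 in limma. For HBA2 males were at 12.77 ± 1.30 (SD, n = 10) and females at 12.50 ± 1.59 (SD, n = 9), a difference of 0.39 (SE 0.65, adjusted P = 0.887 in limma). Of all features, 0.0542% passed an adjusted P under 0.05 between the sexes, and 0 of the 3 genes were among them. The effect of treatment was not shown to differ between the sexes for any of the 3 genes (lowest adjusted P for the interaction in limma 0.98), nor for any other feature (0%).

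The second question was whether the genes moved together. HBA2 and HBB rose and fell together across the 19 horses, with Pearson's r = 0.94 and Spearman's rho = 0.907, each with a permutation P of 1e-05, the smallest that the permutations can give (adjusted P of r over the 3 gene pairs 3e-05). Without the 2 horses farthest from the median of HBA2, r was 0.922. The relation was there within each group, with r = 0.922 in the control horses (exact permutation P = 0.00109) and r = 0.956 in the EE-treated horses (permutation P = 0.00022). It was 0.952 after each slide's mean was subtracted, 0.959 in the 16 arrays of the first scan day and 0.934 after the brightness of the array was regressed out. Single slides held too few horses for a correlation of their own. A line through the 19 horses rose by 0.639 in HBA2 for each unit of HBB on the log2 scale, with a residual SD of 0.505. The slope below 1 goes with the smaller range of HBA2.

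**Figure D4:**
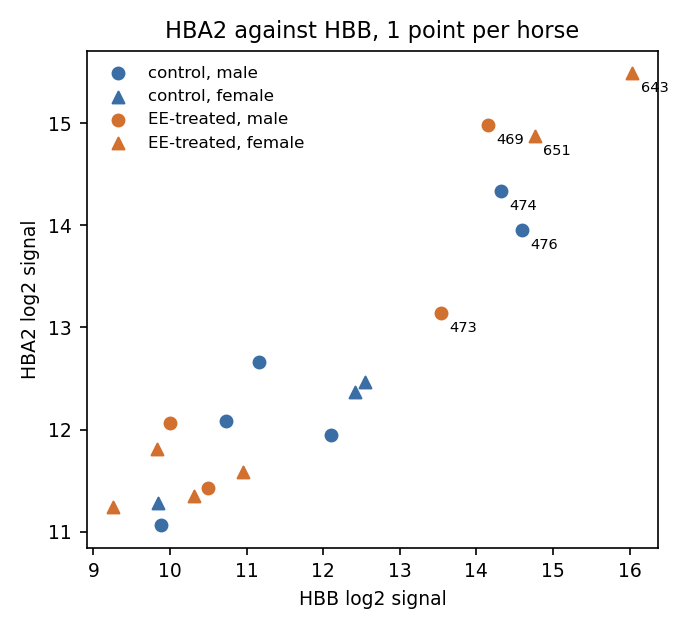
Each point is a horse, with the log2 signal of HBB on the horizontal axis and of HBA2 on the vertical axis, control and EE-treated horses in different colours. The 19 points follow a rising line with r = 0.94, and horses of both groups lie along most of its length, with EE-treated horses at both ends.

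The reference table places a further alpha-globin gene, HBA (also called HBA1), next to HBA2. No probe of the array carried its accession, and whether the HBA2 probe also binds its transcript could not be tested from the files.

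Among the other named genes that were well above background on all arrays, 417 besides the gene itself, those whose signal was most like HBB after HBA2 were APOBEC3Z2A-Z2 (an antiviral cytidine deaminase, r = 0.70), HRH4 (a histamine receptor, r = 0.65), BHLHE40 (a transcription factor, r = 0.62) and PIM1 (a kinase, r = 0.53). Those most like HBA2 after HBB were HRH4 (r = 0.72), APOBEC3Z2A-Z2 (r = 0.71), PIM1 (r = 0.66) and the immediate early gene FOS (r = 0.61). The lowest correlations with HBB were those of PRKAG1, a subunit of the energy sensor AMPK (r = -0.63), CD1B1 (r = -0.61), which belongs to a family that presents lipid antigens, and SNX22 (r = -0.58). With HBA2 they were PRKAG1 (r = -0.79), CD1B1 (r = -0.63) and MIA (r = -0.56). By rank the values for PIM1 and MIA were weaker: rho was 0.42 for PIM1 with HBA2, 0.37 for PIM1 with HBB and -0.29 for MIA with HBA2. For the other genes named here rho lay between 0.55 and 0.70 where r was positive, and between -0.67 and -0.54 where it was negative. All of these are descriptions over the same 19 horses and arrays. None of the named genes came near the likeness of the globin genes to each other.

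Some probes without a gene symbol came closer. Of the 24523 probes other than HBB that were well above background on every array, 12 without a symbol, which carry 7 different accessions, had r above 0.8 with both globin genes, against a median r with HBB of 0.0019 over all these probes. The probe for the transcript ENSECAT00000012519 followed HBB with r = 0.9989 and ran from 8.19 to 14.84. Each of the 5 probes for ENSECAT00000010442 correlated with HBB with r between 0.989 and 0.991. The files do not pair these transcripts with a gene. No probe had r below -0.8 with both. Between EE-treated and control horses the 12 probes had adjusted P values from 0.612 to 0.998 in limma. None passed, and of all 42402 features 0 passed. The 12 probes were picked for following the globin genes on these same arrays, so their comparison adds nothing to that of the globin genes.

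SLC4A1 gave a different picture, because its transcript was hardly measured. Of its 95 spots, 5 probes on 19 arrays, 3 were well above background. The median over all 95 spots was 0.56, with a highest value of 2.38 among the spots not well above background. The lowest signal of any probe well above background lay between 2.29 and 3.37 on these arrays. The 3 spots above background belonged to EE-treated horse646 (3.89 on probe A_69_P001191 and 3.59 on probe A_69_P001193) and EE-treated horse642 (3.06 on probe A_69_P001192). The other SLC4A1 probes of these horses were not well above background, and the 10 pairs of probes correlated over the horses with r from 0.21 to 0.98. No horse had more than 2 of its 5 SLC4A1 probes above background, and neither horse was among the 6 with high globin signals: horse646 was at 10.31 for HBB and horse642 at 10.95.

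**Figure D5:**
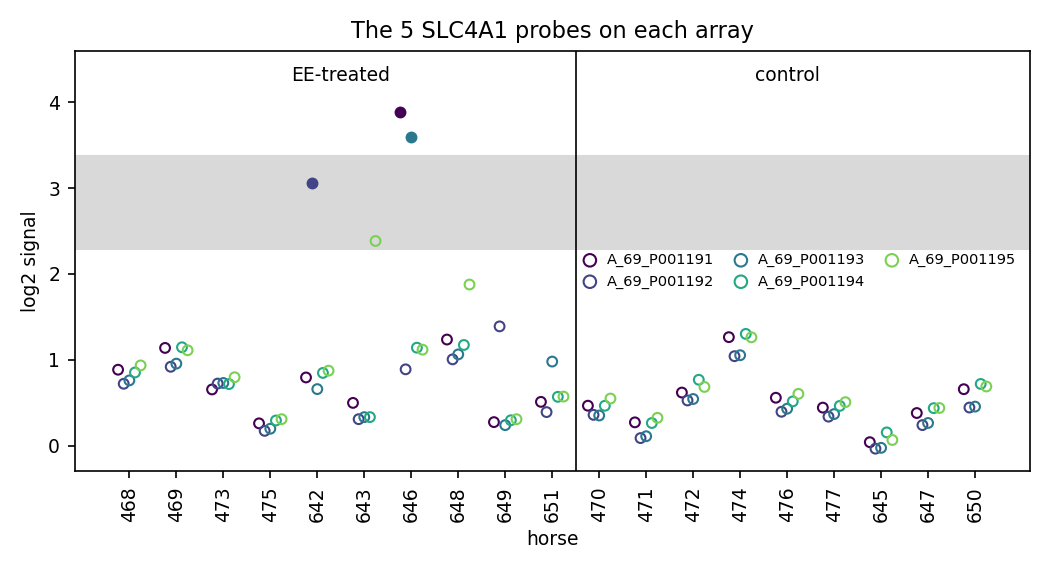
The log2 signal (vertical axis) of the 5 SLC4A1 probes is shown for every horse by group, with filled symbols for the 3 spots well above background and open symbols for the others. The grey band, from 2.29 to 3.37, is the range over arrays of the lowest signal of a probe well above background, and nearly all SLC4A1 spots lie under it.

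Since nearly all SLC4A1 spots in both groups were not well above background, its values are given as measured and are not read as fold changes. The measured mean of its 5 probes was 0.48 ± 0.32 (SD, n = 9) in the control horses and 0.94 ± 0.53 (SD, n = 10) in the EE-treated horses, and 9 of the 10 EE-treated horses were above the control mean. The unadjusted P was 0.0325 and the adjusted P 0.384 in limma, where 11.7% of all features had an unadjusted P under 0.05. The unadjusted P was 0.0644 at most when a single horse was left out. These values followed measures of the whole array: over the 19 horses the SLC4A1 mean correlated with the share of spots well above background with r = -0.81 (permutation P = 2e-05, adjusted over 6 relations 0.00012, rho = -0.736) and with the 75th percentile before scaling with r = -0.56 (permutation P = 0.0122, adjusted 0.0367, rho = -0.733). Without the 2 farthest horses these were -0.767 and -0.467. Every signal was divided by its array's 75th percentile, so a signal that stayed constant before scaling would fall as that percentile rises. Whether the scaling set the relation of SLC4A1 to the 75th percentile was not tested. For the globin genes no relation to either measure was detected, with r from -0.26 to -0.05 and adjusted permutation P values of 0.474 or more. Without the 2 farthest horses r with the 75th percentile was -0.38 for HBA2 and -0.37 for HBB. With the share of spots well above background it was then 0.17 for HBA2 and 0.20 for HBB. With the 75th percentile before scaling as a covariate in the fit, the unadjusted P of SLC4A1 was 0.1002 and the adjusted P 0.660 in limma. The part of the share of spots well above background was not tested.

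No relation of SLC4A1 to the globin genes was detected over the 19 horses. Its r was 0.05 with HBA2 (permutation P = 0.83, adjusted 0.908, rho = 0.16) and 0.03 with HBB (permutation P = 0.908, adjusted 0.908, rho = 0.13). Within the 9 control horses r with HBA2 was 0.72 (exact permutation P = 0.0269, adjusted 0.0404), and within the 10 EE-treated horses it was -0.26. With HBB it was 0.58 (exact permutation P = 0.0993) and -0.17. With the brightest SLC4A1 probe in place of the mean, r over the 19 horses was 0.46 with HBA2 (permutation P = 0.0433, adjusted 0.0649) and 0.40 with HBB (permutation P = 0.0854). The difference in r between the groups was not tested, and no SLC4A1 spot of a control horse was well above background. Between males and females no difference of SLC4A1 was detected (adjusted P = 0.913 in limma). Among the genes whose signal was most like SLC4A1 were MILL (r = 0.69), LAPTM5 (r = 0.67), a lysosomal membrane protein of blood cells, ECATH-3 (an antimicrobial cathelicidin, r = 0.67) and FTL (r = 0.58), and the least like it were PRKAA1 (r = -0.60), PCLAF (r = -0.58) and CENPS (r = -0.52). Since nearly all SLC4A1 spots were not well above background, these are not read as genes expressed together with it.

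Of a list of 76 red cell genes, 8 could be named on the array: the 3 genes above, the embryonic globin HBZ, the glucose transporter SLC2A1, the transferrin receptor TFRC, which reticulocytes carry for iron uptake, glutathione peroxidase GPX1 and the ferritin light chain FTL. The rule of the methods called 0 of the 8, against 1.83% of all features. The median difference of the 8 genes was 0.24 on the log2 scale, against 0.06 for all features. For the 5 genes without HBA2, HBB and SLC4A1 it was 0.15, which is the value of HBZ, a gene not measured above background. The median of the 8 lies between the values of HBZ and HBA2, so neither median is read as a shift of red cell genes. At an unadjusted P under 0.05 in limma, 3 of the 8 (SLC4A1, GPX1 and FTL) were higher in the EE-treated horses, where 7.45% of all features were, and 0 were lower. Of these, SLC4A1 was hardly measured, and GPX1 and FTL are not particular to red cells. The count is therefore not read as a result about red cells. HBZ and TFRC were well above background on 0 of 19 arrays, so neither gene gives a level that could be set beside the globin signals. The 2 SLC2A1 probes were well above background on 3 and 15 arrays, and the gene's adjusted P was 0.837 in limma.

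GPX1 and FTL were well above background on all arrays, and both are made in white cells too. GPX1, the mean of 2 probes, was at 12.93 ± 0.28 (SD, n = 9) in the control horses and 13.27 ± 0.22 (SD, n = 10) in the EE-treated horses, a difference of 0.34 on the log2 scale (SE 0.12), and 9 of 10 EE-treated horses were above the control mean. Its adjusted P was 0.303 in limma. FTL was at 16.42 ± 0.17 (SD, n = 9) and 16.78 ± 0.30 (SD, n = 10), a difference of 0.35 (SE 0.12, adjusted P = 0.283 in limma), also with 9 of 10 EE-treated horses above the control mean. Neither passed the adjusted test. Without EE-treated horse649 both met the rule of the methods, and without control horse650 or horse471 GPX1 did, so the count of 0 rests on single horses. Neither gene had a high correlation with the globin genes: r of HBA2 and HBB with GPX1 was -0.12 and -0.11, and with FTL 0.33 and 0.31.

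Genes of other blood cells were set beside the globin signals in the same way. With MMP9, CD14, CD2, IL7R, ITGA2B, GPX1 and FTL the r of HBA2 and HBB lay between -0.38 and 0.33 in 14 relations, with adjusted permutation P values of 0.567 or more, so no relation between globin signal and these genes was detected. Between the groups, MMP9 differed by 0.59 on the log2 scale (adjusted P = 0.34 in limma), and the B cell gene FCER2, the low-affinity IgE receptor, was at 6.66 ± 0.39 (SD, n = 9) in the control horses and 7.55 ± 0.50 (SD, n = 10) in the EE-treated horses, as the mean of 6 probes that were not all well above background on any array. The FCER2 difference of 0.89 on the log2 scale met the rule of the methods but had an adjusted P of 0.202 in limma. The other blood cell markers well above background on at least 18 arrays differed less. CD14, CD2, CD28 and ITGA2B differed by 0.27, 0.23, 0.14 and 0.11, and IL7R by -0.12 (adjusted P of 0.492 or more in limma). Of the 49 marker genes listed, for blood cells and for other tissues, 13 could be named on the array. The only reticulocyte marker among these, TFRC, was well above background on 0 of 19 arrays. The content of red cells and white cells was not estimated.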

How the data were processed

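Blood RNA of 19 horses, 9 control and 10 EE-treated, was hybridised to 1 single-dye array per horse, and the sample labels gave group, horse and sex. The authors scanned the arrays and deposited, for each spot, a background-corrected intensity with marks for outliers, saturation and signal well above background. The file headers name Feature Extraction 10.7.3.1 and the submitters' processing notes name version 9.1. The authors also deposited log2 values. These matched the processed signal with values under 10 set to 10 before the scaling described next (median absolute difference 0.00023 on the log2 scale). That floor hides most values of SLC4A1, so the scanner intensities were used.

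The intensities of 43803 non-control spots were divided by their array's 75th percentile, multiplied by 500 and put on the log2 scale. Outlier spots (2 to 56 per array) were left out, spots of a probe were averaged, and probes of a named gene were averaged. Of 3275 probes with a RefSeq accession, 1781 were named through a table of the assembly TB-T2T, which was used for names and neighbouring genes only. The files name no genome build, so coordinates and sequences are left out. Groups were compared by limma's lmFit and eBayes (version 3.58.1, R 4.3.3, two-sided, no covariates) over 42402 genes and unnamed probes, with Benjamini-Hochberg adjustment over all of them. Sex was tested with treatment in the fit. Correlations were tested with 100000 two-sided permutations, or exactly with 9 horses. The scripts were tested on simulated data. The horses are separate animals, and the number of arrays limits the precision.

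The genes named are HBA2, HBB and SLC4A1, every named gene of a red cell list and of a marker list, and for each of the 3 genes the 5 named genes with the highest and the 3 with the lowest r among those well above background on all arrays. One gene that this rule names is not reported here. FCER2 and MMP9 come from the marker list. These members and lists were chosen with earlier results of these data known. Alternatives were normexp background correction (offset 50), median centring, quantile normalization, the deposited log2 values, outlier spots kept, the brightest probe per gene, a filter on dim probes, slide, sex or brightness in the fit, the first scan day, the random-variance test of the methods, a permutation test, and each horse left out. Relations of the genes to array measures, markers, GPX1 and FTL were added after the data had been seen. Figures were drawn with matplotlib 3.10.9 in Python 3.11.15.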

Additional observations from a re-analysis of the deposited data

Results flagged for a closer look

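In 4 of the 26 sets of values examined, a single horse lay apart from the others of its group by Dixon's criterion. Chance gives such a horse in about 5% of sets, and all 4 were SLC4A1 probes, which share horses and arrays. On probe A_69_P001191 control horse474 was at 1.26, where the rest of its group lay between 0.04 and 0.66 (gap over range 0.495), and EE-treated horse646 was at 3.89, against 0.26 to 1.24 (0.731). On probe A_69_P001192 EE-treated horse642 was at 3.06, against 0.17 to 1.39 (0.579). On probe A_69_P001193 EE-treated horse646 was at 3.59, against 0.20 to 1.06 (0.745). The 3 EE-treated values are the SLC4A1 spots that were well above background, and the value of control horse474 was not. Neither HBA2 nor HBB had such a horse in either group.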

How the results depend on the processing

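HBA2 between the groups, HBA2 between the sexes, the correlation of HBA2 with HBB and the count of called member probes (0) kept their direction and their side of the threshold under every alternative run, but the size of some moved. HBA2 between the groups, 0.33 on the log2 scale, was 0.0869 on the first scan day, 0.13 with brightness in the fit, 0.0341 without EE-treated horse643 and 0.57 without control horse474, and HBA2 males minus females ran from 0.0609 (without EE-treated horse469) to 0.69 (without EE-treated horse643). HBB between the groups, -0.02 on the log2 scale, was 0.0070 with normexp, 0.0685 with sex in the fit and between -0.48 (without EE-treated horse643) and 0.31 (without control horse476) with single horses left out, never past the threshold. The SLC4A1 values, nearly all not well above background, are measured differences and no fold changes, and their direction is no sign of stability. Between the groups (0.45, unadjusted P = 0.0325 in limma) an exact permutation test gave an unadjusted P of 0.0326, while in limma it was 0.174 on the deposited values, 0.1002 with brightness in the fit, 0.0744 with normexp, 0.0625 with the brightest probe, 0.0600 with quantile normalization and 0.0548 with sex in the fit. Probe A_69_P001194 was at -0.0317 with quantile normalization. With SLC4A1, the r of HBA2 was -0.18 with quantile normalization, -0.066 on the first scan day, -0.0041 with treatment means subtracted, -0.11 with brightness removed, -0.26 within EE-treated horses, -0.0383 without the 2 farthest horses 0.72 within control horses and 0.46 with the brightest probe, and between -0.0273 and 0.297 with single horses left out. The r of HBB with SLC4A1 was -0.16 with quantile normalization, -0.0652 on the first scan day, -0.13 with brightness removed, -0.17 within EE-treated horses, 0.58 within control horses and 0.40 with the brightest probe, and between -0.0594 and 0.229 with single horses left out. Males minus females was 0.0279 for SLC4A1 with slide as a block and 0.033 on the first scan day, between -0.19 and 0.0249 with single horses left out, and for HBB between -0.0186 and 0.79. Called red cell genes numbered 0 to 2 with single horses left out. The cause was not tested for any of these. With dim probes filtered out, no SLC4A1 probe remained and no value could be given. No paired analysis was possible because the groups share no horse number. Nearly all SLC4A1 spots were not well above background, and both globin genes differed widely between horses.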
